A study of Mus musculus with 18 samples.

Results

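The nuclear-encoded subunits of the oxidative phosphorylation system were examined in RNA sequencing of whole mouse tumours. Members were chosen by gene symbol: protein-coding genes whose names start with Ndufa, Ndufb, Ndufc, Ndufs, Ndufv, Uqcr, Cox4i, Cox5, Cox6, Cox7, Cox8 or Atp5, together with Sdha, Sdhb, Sdhc and Sdhd. The Ndufaf assembly factors and pseudogenes were left out. The rule used no measured value. It took 86 of the 21015 gene identifiers in the count table: 37 of complex I, 4 of complex II, 8 of complex III, 20 of complex IV and 17 of complex V. Ndufa4 and Ndufa4l2 were counted with complex IV, where the Ndufa4 protein is now placed. The low-count filter kept 84 of the 86. The other two, Cox7b2 and Cox8c, are complex IV isoforms known from testis, and in every library they stood at 0.0919 CPM or less (CPM is a count scaled to the size of its library).

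Tumours grew from MC38-OVA cells, a mouse colon carcinoma line made to carry ovalbumin, implanted into wild-type hosts or hosts of the genotype ADRA2A-/-, which lack the α2A-adrenergic receptor. Only the host cells of these tumours carry the deletion; the tumour cells bring their own genome into both genotypes. All hosts were labelled 10 weeks old and received PBS, clonidine or guanabenz every day by intraperitoneal injection, and tumours were taken 7 days after treatment. Clonidine and guanabenz are α2-adrenergic agonists. The 18 libraries form 6 groups of 3: WT-Control, WT-Clonidine and WT-Guanabenz, and KO-Control, KO-Clonidine and KO-Guanabenz. The control groups are titled Control, carry the treatment entry Untreated, and are the PBS animals of the protocol as far as the labels tell. The 3 libraries titled KO-Guanabenz also carry the treatment entry Untreated; their titles were followed here, and the conflict bears on each value given for them. The labels give no dose, no sex of the host, and nothing that ties a library to an animal, so each p-value sets a difference against library-to-library spread, part or all of which may be technical.

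Oxidative phosphorylation takes place in the inner membrane of the mitochondrion. Complex I oxidises NADH and complex II oxidises succinate, both handing electrons to ubiquinone; complex III passes them to cytochrome c, and complex IV gives them to oxygen. Complexes I, III and IV pump protons as they do so, and complex V, the ATP synthase, lets the protons back and makes ATP. Complexes I, III, IV and V each contain at least 1 subunit encoded by mitochondrial DNA, none of which has a row in the count table, so the values below concern the nuclear-encoded partners alone. All 4 subunits of complex II are nuclear-encoded.

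Library totals ran from 54683838 to 491137160 estimated counts, and the 86 members made up 0.780% to 0.942% of them. The targeted gene Adra2a was low throughout, at 0.286 to 0.589 CPM in the 9 wild-type libraries and 0.0917 to 0.293 CPM in the 9 knockout libraries. Those ranges overlapped, and the difference under control, a log2 fold change of -1.20 (SE 0.34), did not pass the edgeR test (adjusted p = 1.00). The sources used here do not give which part of the gene was deleted. Of the epithelial markers a carcinoma would carry, Krt8, Krt18 and Krt19 stayed at 0.534 CPM or less and Epcam at 2.75 CPM or less, while Cdh1 reached 9.75 CPM. Y-linked transcripts (Ddx3y, Eif2s3y and Uty) were present in 3 of 3 WT-Control, 2 of 3 WT-Clonidine, 2 of 3 WT-Guanabenz, 2 of 3 KO-Control, 2 of 3 KO-Guanabenz and 0 of 3 KO-Clonidine libraries. No pair of libraries held identical counts.

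Levels between genes were compared as CPM per kilobase of transcript, averaged over the 18 libraries. Complex V had the highest median, 156 CPM per kilobase over 17 genes, followed closely by complex IV at 152 over 18 and complex III at 127 over 8. Complex I had 82.0 over 36 genes with a usable length, and complex II 66.9 over 4. The order of complexes therefore set the synthase and cytochrome c oxidase above the NADH and succinate dehydrogenases, with wide overlap between single genes. Complex I ran from Ndufb2 at 13.6 CPM per kilobase to Ndufa7 at 193. Complex II was the narrowest, from Sdhc at 54.0 to Sdhb at 74.0. Complex III ran from Uqcrc1, a core protein, at 48.9 to the hinge protein gene Uqcrh at 242. In complex IV the top was Cox4i1 at 513 CPM per kilobase, the highest of all members, and the bottom was Cox8b, a muscle isoform, at 1.01. Complex V ran from Atp5g2 at 42.7 to Atp5b, the catalytic β subunit, at 433. These levels rest on 1 typical transcript length per gene, which is uncertain for Ndufb2 (annotated transcripts of 455 to 4371 bases) and Atp5g1 (596 to 4715 bases). Ndufb4c, called protein coding by RefSeq and a processed pseudogene by GENCODE, is named as a copy of Ndufb4, and the counting could split reads between such genes; its level of 28.0 CPM against 13.4 CPM for Ndufb4 is uncertain.

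**Figure D1:**
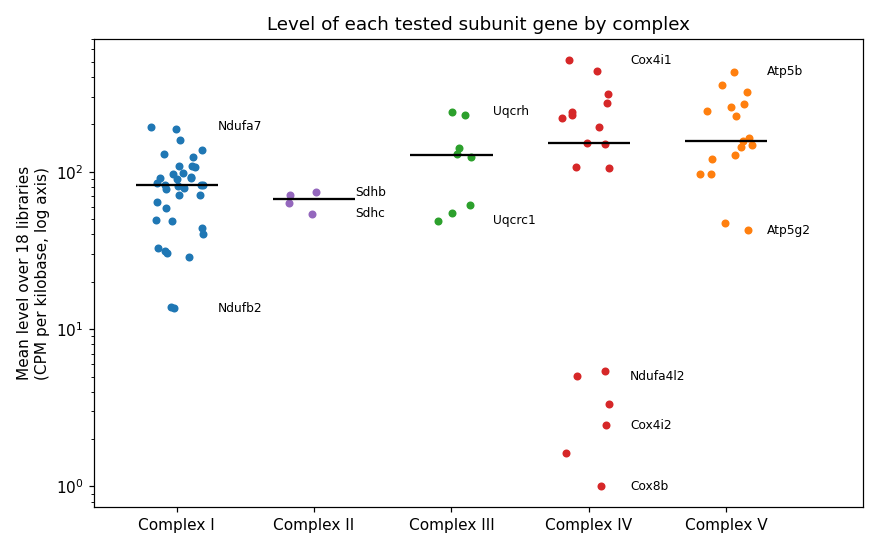
Mean level over 18 libraries of each tested subunit gene with a transcript length (points), in CPM per kilobase on a log axis, by complex; black bars are the medians of each complex. Complexes V and IV have the highest medians, 156 and 152 CPM per kilobase, and 6 complex IV isoforms with restricted expression lie below 6 CPM per kilobase.

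Between groups, each gene was compared as CPM scaled by TMM (trimmed mean of M values). The summed level of the 86 members was 8982 ± 322 CPM in WT-Control (SD, n = 3), 8230 ± 380 in WT-Clonidine and 8053 ± 118 in WT-Guanabenz. In the knockout hosts it was 9228 ± 323 CPM in KO-Control, 9347 ± 125 in KO-Clonidine and 8179 ± 375 in KO-Guanabenz. The WT-Clonidine libraries spanned 7881 to 8635 CPM and the WT-Control libraries 8629 to 9260, so those groups just touched. The WT-Guanabenz libraries (7952 to 8182) lay below every WT-Control library, and the KO-Guanabenz libraries (7948 to 8611) below every KO-Control library (8895 to 9541). KO-Clonidine (9207 to 9446) lay within the range of KO-Control and above every WT-Clonidine library.

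The mean log2 level of the 84 tested members gives each gene the same weight, and is given relative to the WT-Control mean. It was 0.04, -0.02 and -0.02 in the WT-Control libraries, -0.04, -0.12 and -0.16 in WT-Clonidine, and -0.20, -0.16 and -0.10 in WT-Guanabenz. It was 0.07, -0.01 and 0.03 in KO-Control, 0.05, 0.07 and 0.04 in KO-Clonidine, and -0.21, -0.17 and -0.10 in KO-Guanabenz. Every library of WT-Clonidine, WT-Guanabenz and KO-Guanabenz thus lay below every library of the other 3 groups. The same held for complex V alone, while in complexes I, II, III and IV the lowest library of the upper groups overlapped the highest of the lower groups. Group means had this order in all 5 complexes.

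**Figure D2:**
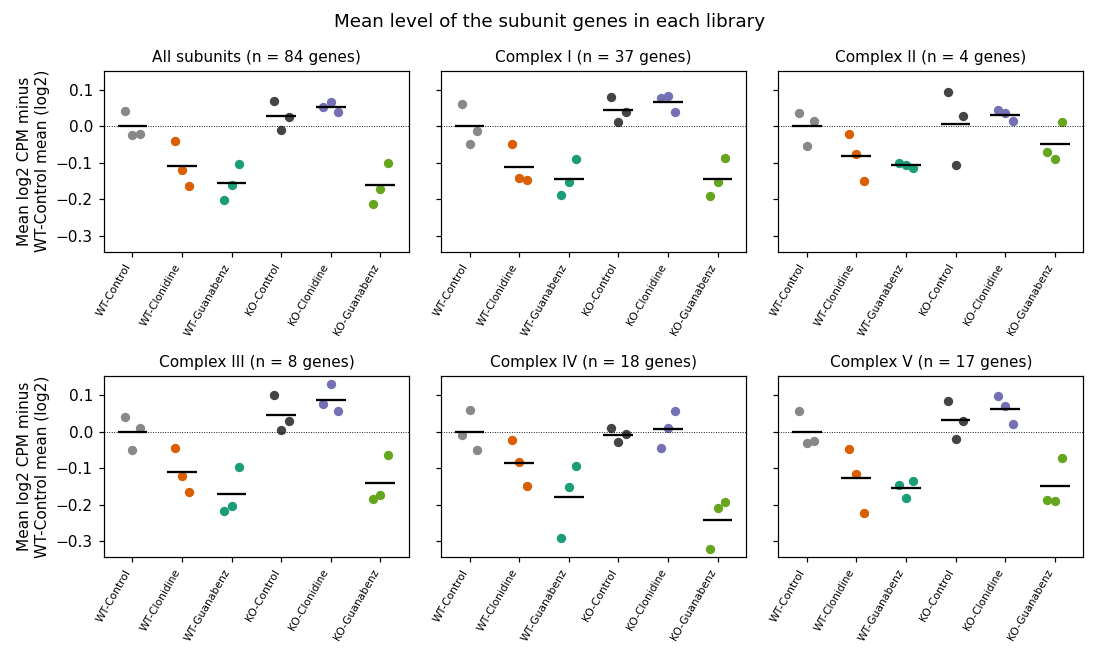
Mean log2 CPM of the subunit genes in each library relative to the WT-Control mean, for all 84 tested members and for each complex; points are libraries and bars are group means of 3. WT-Clonidine, WT-Guanabenz and KO-Guanabenz lie below the other groups for all members together, while KO-Clonidine lies at 0.04 to 0.07.

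Across the 6 groups at once, 10 of the 84 tested members differed by the edgeR quasi-likelihood F test at an adjusted p under 0.05, against 2.02% of the 16125 genes tested. They were Ndufa12, Ndufs4 and Ndufs6 of complex I, Uqcrq and Uqcr11 of complex III, Cox4i1, Cox7a2l and Cox7c of complex IV, and Atp5d and Atp5md of complex V, with adjusted p-values from 0.0197 to 0.0363. No complex II gene was among them. At an unadjusted p under 0.05, 60 members differed, against 19.2% of genes. DESeq2 called 45 members, against 11.8% of genes, and limma-voom 48, against 13.5%. With the transcript length trend removed 1 of the 10 edgeR calls was left, with 48 genes called in all, and with total-count scaling 3, with 79. With the KO-Guanabenz libraries read as KO-Control none was left, with 5 genes called in all. Leaving out 1 library gave 0 member calls without WT-Clonidine 2 (6 genes in all) and 2 without WT-Guanabenz 2 or KO-Guanabenz 1 (27 and 38 genes). It gave 5 without WT-Clonidine 3 or KO-Clonidine 1 (75 and 74 genes), 6 without KO-Clonidine 3 (97 genes), and 17 without WT-Guanabenz 3 (522 genes).

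**Figure D3:**
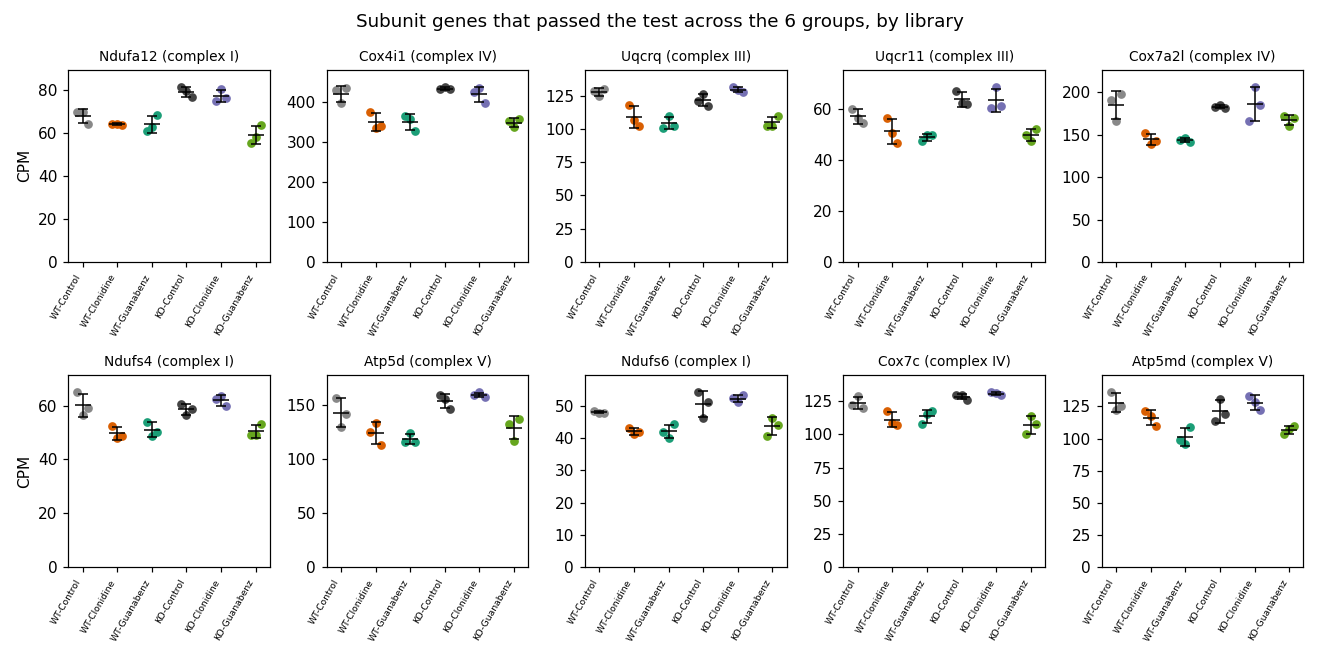
CPM of the 10 subunit genes that differed across the 6 groups, by library (points), with the group mean and SD (black); every axis starts at 0. Differences are small against the level of each gene: Cox4i1, for example, lies at 327 to 375 CPM in WT-Clonidine, WT-Guanabenz and KO-Guanabenz and at 397 to 437 CPM in the other 3 groups.

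In complex I, Ndufa12 (Entrez 66414, chr10:94199035-94221440, GRCm38) encodes an accessory subunit. It stood at 69.8, 69.8 and 64.2 CPM in WT-Control, 64.4, 64.4 and 63.9 in WT-Clonidine and 61.1, 62.9 and 68.5 in WT-Guanabenz. In the knockout hosts it stood at 81.4, 79.5 and 76.9 CPM in KO-Control, 75.02, 80.5 and 76.4 in KO-Clonidine and 55.5, 58.3 and 63.7 in KO-Guanabenz. The KO-Guanabenz libraries were all below the KO-Control libraries, and the KO-Control libraries were all above the WT-Control libraries; in the wild-type hosts each drug group overlapped WT-Control. Ndufs4 (Entrez 17993, chr13:114287795-114388094), an accessory subunit whose loss causes a Leigh-like encephalopathy in mice, stood at 64.9, 56.5 and 58.9 CPM in WT-Control, 52.4, 48.1 and 48.6 in WT-Clonidine and 54.1, 48.8 and 50.3 in WT-Guanabenz. Its knockout values were 60.7, 56.5 and 58.7 CPM in KO-Control, 62.3, 63.7 and 59.8 in KO-Clonidine and 49.3, 48.9 and 53.1 in KO-Guanabenz. All libraries of WT-Control, KO-Control and KO-Clonidine were above all libraries of the other 3 groups. Ndufs6 (Entrez 407785, chr13:73319876-73328482), a small zinc-binding subunit, showed the same split by a narrow gap: 47.7 to 48.3 CPM in WT-Control, 46.3 to 54.2 in KO-Control and 51.1 to 53.3 in KO-Clonidine, against 41.2 to 43.1 in WT-Clonidine, 39.9 to 44.2 in WT-Guanabenz and 40.7 to 46.2 in KO-Guanabenz.

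Among the core genes of complex I, Ndufs1, the large iron-sulphur subunit, stood at 77.2 ± 3.02 CPM in WT-Control (SD, n = 3), 74.96 ± 0.767 CPM in WT-Clonidine and 75.2 ± 4.42 CPM in KO-Guanabenz, and no pair of groups compared was free of overlap. Ndufv1, which binds NADH and the flavin, stood at 144 to 162 CPM in WT-Clonidine and 174 to 177 in KO-Clonidine, and those groups did not overlap. Ndufs7, a core subunit beside the quinone site, stood at 36.6 to 42.0 CPM in KO-Guanabenz against 45.7 to 49.4 in KO-Control, also without overlap. None of the 3 core genes passed the edgeR test in any comparison.

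Complex II was described through all 4 of its genes. Sdha, the flavoprotein that oxidises succinate, stood at 174, 178 and 189.7 CPM in WT-Control, 185, 181 and 173 in WT-Clonidine and 179.7, 179 and 174 in WT-Guanabenz. In the knockout hosts it was at 197, 166 and 184 CPM in KO-Control, 184, 183 and 189.7 in KO-Clonidine and 186, 189.6 and 193 in KO-Guanabenz. Each drug group overlapped its control. Sdhb, the iron-sulphur subunit, stood at 78.8 to 79.8 CPM in WT-Guanabenz and 81.3 to 92.1 in WT-Control, without overlap, and its other groups overlapped their controls. The membrane anchors Sdhc and Sdhd were lower in every WT-Clonidine and WT-Guanabenz library than in every WT-Control library; Sdhc stood at 110.4 to 116 CPM in WT-Control, 95.7 to 109 in WT-Clonidine and 99.9 to 104 in WT-Guanabenz. Sdhd stood at 85.0 to 94.1, 81.1 to 84.5 and 79.1 to 83.2 CPM in the same groups. No complex II gene passed the edgeR test in any comparison.

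In complex III, Uqcrq (Entrez 22272, chr11:53427922-53430831), a small accessory subunit, stood at 129, 125 and 129.9 CPM in WT-Control, 118, 107 and 103 in WT-Clonidine and 101, 109.8 and 102 in WT-Guanabenz. Knockout hosts had 121, 126 and 118 CPM in KO-Control, 131, 129 and 128 in KO-Clonidine and 103, 102 and 109.8 in KO-Guanabenz. Every KO-Clonidine library was above every KO-Control library, and every WT-Clonidine library below every WT-Control library. Uqcr11 (Entrez 66594, chr10:80402997-80406821), a small subunit, stood at 60.1, 56.6 and 54.5 CPM in WT-Control, 56.5, 50.6 and 46.6 in WT-Clonidine and 47.2, 49.6 and 49.8 in WT-Guanabenz. The knockout libraries gave 67.0, 62.5 and 61.8 CPM in KO-Control, 60.5, 68.5 and 60.96 in KO-Clonidine and 49.8, 47.4 and 52.0 in KO-Guanabenz. WT-Clonidine overlapped WT-Control here, while WT-Guanabenz and KO-Guanabenz did not overlap their controls. Of the core of the complex, Uqcrc1 overlapped its control in each treated group, and the Rieske iron-sulphur protein gene Uqcrfs1 stood at 67.9 to 74.4 CPM in KO-Guanabenz against 78.0 to 82.7 in KO-Control, without overlap.

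In complex IV, Cox4i1 (Entrez 12857, chr8:120668225-120674209), the common isoform of the regulatory subunit 4, stood at 429.8, 397 and 434 CPM in WT-Control, 375, 335 and 339.9 in WT-Clonidine and 366, 357 and 327 in WT-Guanabenz. In ADRA2A-/- hosts the values were 432, 437 and 432 CPM in KO-Control, 426, 435 and 398 in KO-Clonidine and 353, 337 and 357 in KO-Guanabenz. Its groups split without overlap in the way those of Ndufs4 did. Cox7a2l (Entrez 20463, chr17:83501917-83514333), which links complexes III and IV in the respiratory supercomplex, stood at 191, 166 and 198 CPM in WT-Control, 152, 139.6 and 142 in WT-Clonidine and 144, 147 and 141 in WT-Guanabenz. Its levels in knockout hosts were 183, 186 and 181 CPM in KO-Control, 167, 206 and 186 in KO-Clonidine and 172, 161 and 169.9 in KO-Guanabenz. It was lower in every treated wild-type library than in every WT-Control library, and every KO-Guanabenz library was above every WT-Guanabenz library. Cox7c (Entrez 12867, chr13:86044798-86046795), another small subunit, stood at 119.98 to 129 CPM in WT-Control, 107 to 117 in WT-Clonidine and 108 to 118 in WT-Guanabenz. It stood at 126 to 129.8 CPM in KO-Control, 129 to 132 in KO-Clonidine and 100.2 to 114 in KO-Guanabenz, again without overlap between each of WT-Clonidine, WT-Guanabenz and KO-Guanabenz and its control. Cox5a stood at 107 to 124 CPM in KO-Guanabenz against 130.4 to 136 in KO-Control.

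In complex V, Atp5d (Entrez 66043, chr10:80138698-80145828), the δ subunit of the central stalk, stood at 157, 129.9 and 142 CPM in WT-Control, 125, 133 and 113 in WT-Clonidine and 116, 124 and 116 in WT-Guanabenz. In knockout libraries it stood at 159.7, 156 and 147 CPM in KO-Control, 159, 162 and 157 in KO-Clonidine and 133, 117 and 138 in KO-Guanabenz. WT-Clonidine overlapped WT-Control, and both guanabenz groups lay below their controls. Atp5md (Entrez 66477, chr19:47083471-47090647), a small membrane subunit found where synthase dimers meet, stood at 136, 122 and 126 CPM in WT-Control, 121, 118 and 109.7 in WT-Clonidine and 98.7, 96.1 and 109 in WT-Guanabenz. The knockout values were 113, 131 and 119 CPM in KO-Control, 133, 129 and 122 in KO-Clonidine and 103, 107 and 109.7 in KO-Guanabenz. WT-Clonidine, WT-Guanabenz and KO-Guanabenz each lay below their control. Of the catalytic head, Atp5b stood at 779.9 to 915 CPM in WT-Control, 667 to 776 in WT-Clonidine and 706 to 917 in KO-Guanabenz, and the α subunit gene Atp5a1 overlapped its control in each treated group.

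The clonidine comparison in wild-type hosts set these transcripts against control in hosts that carry Adra2a. No member passed: 0 of 84 by edgeR against 0% of all genes tested, with 24 members lower and 0 higher at an unadjusted p under 0.05, against 6.91% and 5.98% of genes. By DESeq2 6 members were called, against 2.2% of genes, and by limma-voom 7, against 4.79%, all 6 and all 7 lower. The median log2 fold change was -0.10 over the members, of which 78 of 84 were below 0, against 0.00 over all genes, of which 49.2% were below 0. By complex the median was -0.10 in complex I, -0.09 in II, -0.11 in III, -0.07 in IV and -0.13 in V. The smallest p-values belonged to Cox7a2l at a log2 fold change of -0.36 (SE 0.07, edgeR adjusted p = 0.0992), Ndufs4 at -0.27 (0.06), Cox4i1 at -0.26 (0.06) and Uqcrq at -0.23 (0.06). In 24 of 84 members the WT-Clonidine libraries were all below the WT-Control libraries, against 9.81% of genes, and in 0 all above, against 11.1%. Beside this, the 12 hypoxia genes were all below 0, with a median of -0.74; their summed level was 1647 to 2231 CPM in WT-Clonidine and 2559 to 2976 in WT-Control. The 9 T cell markers were all above 0, summing to 44.4 to 58.4 CPM against 26.6 to 36.0. The 5 erythroid markers were all below 0, with a median of -1.13 and sums of 88.8 to 177 CPM against 174 to 293. Of the 7 fibroblast markers 6 were below 0, with a median of -0.16 and overlapping sums. The part of these lists in the subunit values was not tested, and in whole tumours fewer cells of a type and less RNA per cell cannot be told apart. The median moved to -0.05 both with total-count scaling and with the length trend removed.

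In knockout hosts no member passed under clonidine: 0 of 84 by edgeR, against 0.0186% of genes, with 0 lower and 0 higher at an unadjusted p under 0.05, against 2.78% and 2.74%, and 0 by DESeq2 and limma-voom. The median log2 fold change was 0.03, with 27 of 84 members below 0, against 49.7% of genes. The complex medians lay between 0.02 and 0.06. The members with the smallest p were Ndufb10 at 0.12 (SE 0.07), Cox6b2, a low isoform of 0.423 to 1.20 CPM, at 0.52 (0.31), Uqcrq at 0.09 (0.06) and Atp5h at 0.11 (0.07), with edgeR adjusted p-values of 0.952 to 0.975. KO-Clonidine libraries were all above KO-Control in 7 members, against 4.4% of genes, and all below in 1, against 4.43%. The 5 erythroid markers were all above 0, summing to 405 to 1617 CPM in KO-Clonidine and 143 to 387 in KO-Control. Of the skeletal muscle markers 14 of 15 were below 0, with a median of -0.36. Of the 7 fibroblast markers 6 were above 0, with a median of 0.26 and overlapping sums. Their part was not tested. With the KO-Guanabenz libraries read as KO-Control, as their treatment entry has it, the median was 0.12; with total-count scaling it turned to -0.01.

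The difference between the clonidine effects of the genotypes was tested as an interaction. No member passed, 0 of 84 by edgeR against 0% of genes, with 19 members more negative in wild type and 0 more positive at an unadjusted p under 0.05, against 4.87% and 4.07%. DESeq2 and limma-voom called 0. The median of the differences was -0.14, with 77 of 84 below 0, against 0.00 and 49.3% over all genes. Ndufs4 differed by -0.35 (SE 0.09), Uqcrq by -0.32 (0.08), Cox7a2l by -0.38 (0.11) and Ndufa1, an X-linked accessory subunit of complex I, by -0.26 (0.08) on the log2 scale, with edgeR adjusted p-values of 0.381 to 0.429. In 21 of 84 members every WT-Clonidine library was below and every KO-Clonidine library above its control mean, against 5.19% of genes. The median moved to -0.05 with total-count scaling or the length trend removed, and to -0.22 with KO-Guanabenz read as KO-Control.

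Guanabenz in wild-type hosts gave lower values for every member, 84 of 84, against 47.8% of genes, yet no member passed: 0 of 84 by edgeR, against 0% of genes. At an unadjusted p under 0.05, 34 were lower and 0 higher, against 6.26% and 5.18% of genes. DESeq2 called 7 members, against 1.06% of genes, and limma-voom 1, against 0.0372%, and all of these members were lower. The median was -0.14 against 0.01 over all genes, with -0.14 in complex I, -0.13 in II, -0.19 in III, -0.14 in IV and -0.14 in V. The smallest p-values belonged to Uqcrq at -0.29 (SE 0.06), Atp5md at -0.34 (0.07), Cox7a2l at -0.36 (0.07) and Cox4i1 at -0.26 (0.06), with edgeR adjusted p-values of 0.141 to 0.167. In 39 of 84 members the WT-Guanabenz libraries were all below the WT-Control libraries, against 8.19% of genes. Of the skeletal muscle markers 14 of 15 were below 0, with a median of -0.34. The hypoxia genes were below 0 in 11 of 12, with a median of -0.20 and sums of 2373 to 2598 CPM against 2559 to 2976, and the fibroblast markers in 6 of 7, with a median of -0.21 and sums of 13925 to 15011 CPM against 14793 to 17936. The part of these lists was not tested. This comparison and that of clonidine share the WT-Control libraries. The median moved to -0.05 with the length trend removed.

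In the libraries titled KO-Guanabenz, 82 of 84 members were below KO-Control, against 51.3% of genes, the exceptions being Sdha at 0.06 and Ndufa4l2 at 0.04. Ndufa12 fell by 0.42 on the log2 scale (SE 0.06, edgeR adjusted p = 0.0336), lower in 3 of 3 libraries. It was the 1 member called, against 0.0124% of genes, which is 2 genes in all. Next came Cox4i1 at -0.32 (SE 0.06, edgeR adjusted p = 0.0658), Uqcr11 at -0.36 (0.07, 0.072) and Cox7c at -0.26 (0.06, 0.0902). At an unadjusted p under 0.05, 58 members were lower and 0 higher, against 8.37% and 6.74% of genes. DESeq2 called 14 members, against 2.83% of genes, and limma-voom 12, against 2.13%. The median was -0.18 against -0.01 over all genes, with -0.18 in complex I, -0.08 in II, -0.17 in III, -0.16 in IV and -0.18 in V. In 57 of 84 members the KO-Guanabenz libraries were all below the KO-Control libraries, against 10.5% of genes: 31 in complex I, 0 in II, 4 in III, 10 in IV and 12 in V. All 15 skeletal muscle markers were below 0, with a median of -0.95 and summed levels of 71.0 to 198 CPM against 221 to 311. The 7 fibroblast markers were all above 0, summing to 17574 to 19187 CPM against 11682 to 16260. The 12 hypoxia genes were all below 0, with a median of -0.11 and overlapping sums of 2259 to 2977 CPM against 2388 to 3695. Their part in the subunit values was not tested. The call of Ndufa12 was lost with the replicate block, with the length trend removed and with only both groups fitted. It was also lost without any 1 of 10 libraries (WT-Clonidine 1 and 2, WT-Guanabenz 2, KO-Clonidine 1, 2 and 3, KO-Control 2 and 3, KO-Guanabenz 1 and 2), with edgeR adjusted p-values of 0.0513 to 0.265; over all 28 alternatives they ran from 5.8e-07 to 0.265.

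In the interaction test of the guanabenz effects no member passed: 0 of 84 by edgeR, against 0.0062% of genes, with 1 higher and 1 lower at an unadjusted p under 0.05, against 3.13% and 2.58%, and 0 by DESeq2 and limma-voom. The median difference was 0.04, with 30 of 84 below 0, against 47.7% of genes. The smallest p-values belonged to Ndufa12 at 0.34 (SE 0.09), Cox7a2l at -0.23 (0.11), Cox8b at 1.07 (0.51) and Atp5g3 at 0.19 (0.10), with edgeR adjusted p-values of 0.836 to 0.88. A value that misses the threshold does not show that the genotypes respond alike.

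Without drug, no member passed between KO-Control and WT-Control: 0 of 84 by edgeR, against 0.0062% of genes, with 2 higher and 0 lower at an unadjusted p under 0.05, against 2.25% and 1.43%, and 0 by DESeq2 and limma-voom. The median was 0.04, with 25 of 84 below 0, against 49.9% of genes. Ndufa12 was at 0.22 (SE 0.06, edgeR adjusted p = 0.962), Uqcr11 at 0.16 (0.07), and the complex I accessory genes Ndufa6 and Ndufa9 at 0.11 and 0.09. KO-Control was all above WT-Control in 8 members, against 4.56% of genes, and all below in 1, against 3.77%. With KO-Guanabenz read as KO-Control the median was -0.05 and the value of Uqcr11 turned to -0.01.

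Under clonidine, KO-Clonidine was higher than WT-Clonidine in 13 of 84 members by edgeR, against 1.82% of genes called higher, and lower in 0, against 0.682%; in either direction 2.5% of genes were called. At an unadjusted p under 0.05, 47 members were higher and 0 lower, against 11.1% and 8.48% of genes. The 13 were Ndufs4, Ndufs6, Ndufa1, Ndufa12, Ndufv3, Ndufa7 and Ndufs8 of complex I, Uqcrq and Uqcr11 of complex III, Cox7a2l, Cox4i1 and Cox7c of complex IV, and Atp5d of complex V. Ndufs4 was higher by 0.32 on the log2 scale (SE 0.06, edgeR adjusted p = 0.0222), Cox7a2l by 0.36 (0.07, 0.0232) and Atp5d by 0.36 (0.08, 0.0257). The other 10 lay between 0.22 (Ndufa7) and 0.34 (Ndufv3), the last of them by p being Ndufs8, a core subunit carrying iron-sulphur clusters, at 0.33 (edgeR adjusted p = 0.0477). Of the 4 not shown above, Ndufa1 stood at 39.8 to 42.3 CPM in KO-Clonidine against 33.3 to 35.9 in WT-Clonidine, and Ndufv3, an accessory subunit beside the NADH-binding site, at 46.2 to 55.1 against 37.6 to 42.5. Ndufa7, another accessory subunit, stood at 109 to 113 CPM against 90.7 to 101, and Ndufs8 at 85.3 to 91.3 against 63.8 to 73.9. All 13 were higher in every KO-Clonidine library than in every WT-Clonidine library. Over all members the median was 0.17, with 5 of 84 below 0, against -0.01 and 51.7% over all genes; it was 0.19 in complex I, 0.12 in II, 0.20 in III, 0.14 in IV and 0.18 in V. Groups did not overlap in 53 members that were higher, against 14.2% of genes, and in 1 that was lower, Cox4i2, against 12.8%.

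These libraries also differed in other respects. The 12 hypoxia genes were all above 0, with a median of 0.91 and summed levels of 2192 to 3880 CPM in KO-Clonidine against 1647 to 2231 in WT-Clonidine. All 9 T cell markers were below 0, with a median of -0.89 and sums of 24.3 to 36.8 CPM against 44.4 to 58.4. All 5 erythroid markers were above 0, summing to 405 to 1617 CPM against 88.8 to 177, and all 15 skeletal muscle markers were below 0, with a median of -0.60. The pericyte and smooth muscle list was mixed, with 6 of 10 below and 4 of 10 above 0 and a median of -0.25. Of the genes in these lists, edgeR called 1 of 12 hypoxia genes higher (Ddit4), and 2 of 9 T cell (Cd5 and Cd6) and 2 of 10 pericyte and smooth muscle markers (Notch3 and Rgs5) lower. Their part in the subunit values was not tested. The count of 13 fell to 2 with a term for Y-linked transcripts (Cox7a2l and Atp5d), against 1.32% of genes. It fell to 2 with the length trend removed (Ndufs4 and Cox7a2l), against 1.36% of genes. It was 0 with total-count scaling (1.54% of genes), with KO-Guanabenz read as KO-Control (0.211%) or with only both groups fitted (0.025%). Without the KO-Guanabenz group it was 6, against 1.36% of genes. DESeq2 called 24 members, against 7.12% of genes, and limma-voom 22, against 7.85%. Without WT-Clonidine 2, WT-Clonidine 3 or KO-Clonidine 3 the edgeR count was 0, with 2, 1 and 5 genes called in all. Without KO-Clonidine 1 it was 1, with 70 genes called in all. Without WT-Clonidine 1 or KO-Clonidine 2 it was 3, with 48 and 312 genes, and without WT-Guanabenz 2 or KO-Guanabenz 1 it was 7, with 262 and 239.

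**Figure D4:**
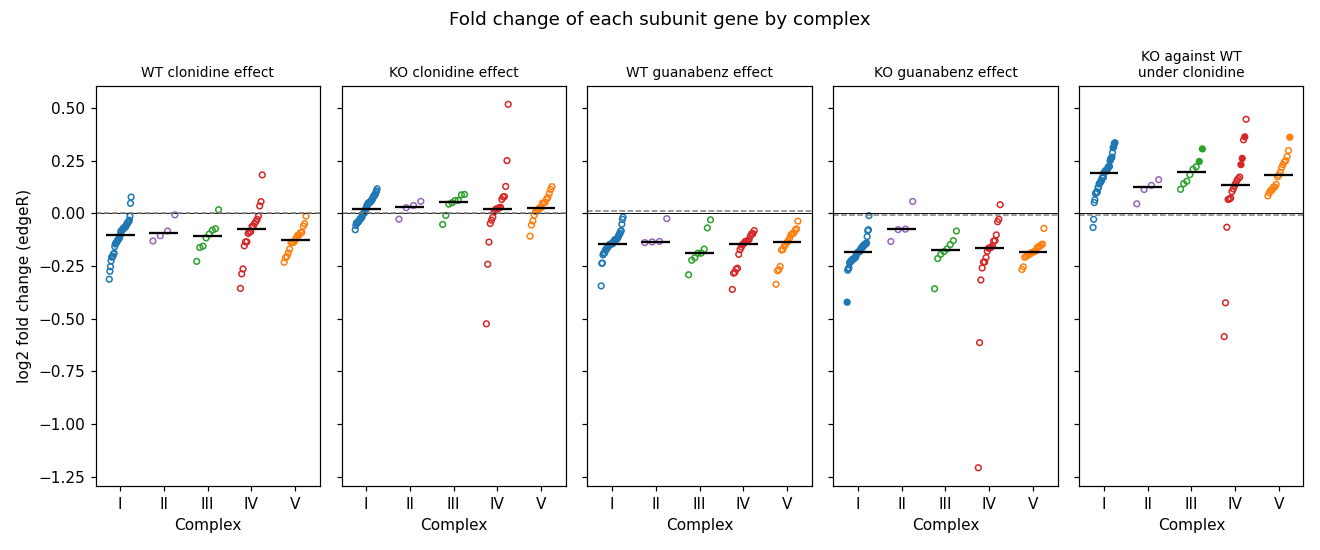
log2 fold change (edgeR) of each tested subunit gene by complex in 5 comparisons; filled points passed an adjusted p under 0.05, black bars are complex medians, and the dashed line is the median of all genes tested. Most members lie below 0 in WT clonidine, WT guanabenz and KO guanabenz and above 0 in KO against WT under clonidine, with medians of -0.10, -0.14, -0.18 and 0.17.

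The agonists were set side by side in wild-type hosts. At doses the labels do not give, WT-Clonidine against WT-Guanabenz had a median of 0.04 over the members, with 17 of 84 below 0, against 51.7% of genes, and no member passed: 0 of 84 by edgeR, against 0% of genes, with 1 higher and 0 lower at an unadjusted p under 0.05, against 2.57% and 2.48%, and 0 by DESeq2 and limma-voom. The smallest p belonged to Atp5md at 0.20 (SE 0.07, edgeR adjusted p = 0.957), Cox6c at 0.19 (0.10), Uqcrh at 0.12 (0.06) and Cox7b at 0.15 (0.09). The 95% interval of Atp5md ran from 0.05 to 0.35, and over the members the interval reached a median of 0.15 to either side. A p that misses the threshold does not show that the agonists act alike. The groups did not overlap in 5 members that were higher, against 5.33% of genes, and 3 that were lower, against 3.74%.

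The fold changes of all genes went with transcript length, and the subunit transcripts are short. Their median length was 730 bases against 2412 over all genes with a length, and 68 of the 83 tested members with a length fell in the shortest of 5 equal length classes of genes tested, below 1514 bases. In KO-Guanabenz against KO-Control the median of all genes ran from -0.11 in the shortest class to 0.09 in the longest class, and the members of the shortest class had a median of -0.18. In wild-type guanabenz it ran from -0.08 to 0.09, with -0.15 for those members. In wild-type clonidine it ran from -0.05 to 0.05, with -0.10, and in KO against WT under clonidine from 0.06 to -0.06, with 0.17. With each library's trend on length taken out, the members' medians were -0.05 in wild-type clonidine, 0.00 in knockout clonidine, -0.05 in wild-type guanabenz, -0.06 in knockout guanabenz and 0.08 in KO against WT under clonidine. These 5 medians over all members kept their sign, but in wild-type clonidine against guanabenz the median turned from 0.04 to -0.00056. Of the complex medians for drug against control, that of complex II in knockout guanabenz turned from -0.08 to 0.01 and that of complex IV in knockout clonidine from 0.02 to -0.0073. The part of length in the subunit values was not tested beyond this.

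**Figure D5:**
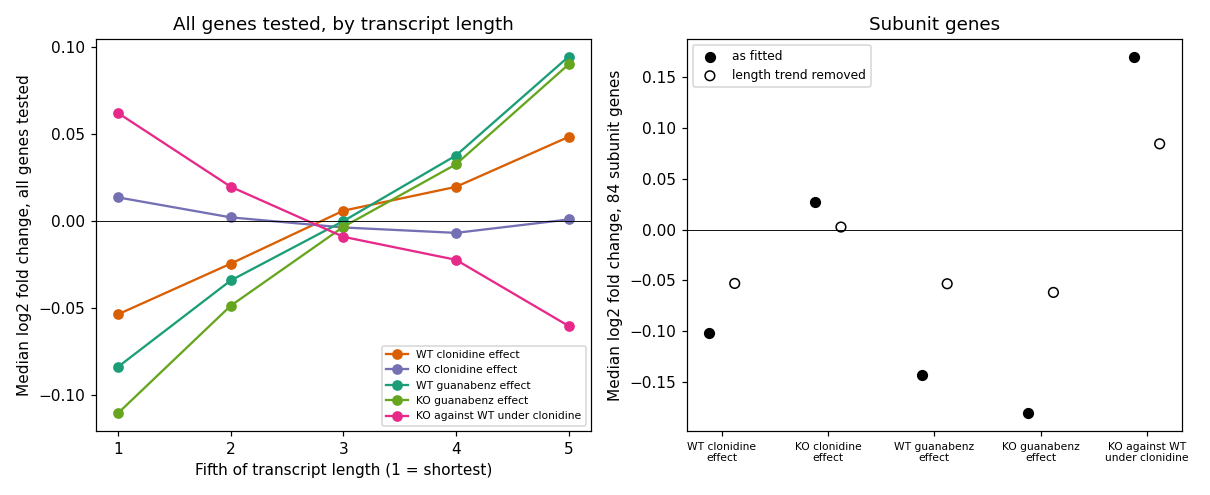
Left, median log2 fold change of all genes tested by class of transcript length, from shortest to longest, in 5 comparisons; right, median of the 84 subunit genes as fitted (filled) and with each library's length trend removed (open). Removing the trend brings the KO guanabenz median from -0.18 to -0.06 and the KO against WT median under clonidine from 0.17 to 0.08.

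Several subunits exist as isoforms, 1 widely expressed and 1 known from particular tissues. The share of the restricted isoform in the summed counts per kilobase of its set was low throughout. Over the 18 libraries, Cox4i2, known from lung and from cells short of oxygen, made up 0.484% ± 0.119 (SD) of Cox4i1 and Cox4i2, and the muscle isoforms Cox6a2, Cox7a1 and Cox8b made up 2.18% ± 0.474, 3.11% ± 0.513 and 0.231% ± 0.0876 of theirs. Ndufa4l2, induced in hypoxia, made up 1.82% ± 0.297 of Ndufa4 and Ndufa4l2. These tumours thus used the common isoform of each set almost alone. Atp5g1, Atp5g2 and Atp5g3 encode the same mature c ring subunit of the synthase with different import sequences, and made up 10.6%, 9.51% and 79.9%; counted without length they were 31.0%, 6.10% and 62.9%, since the length of Atp5g1 is uncertain.

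The shares were compared between drug and control within each genotype in 32 exact two-sided permutation tests, each of 3 libraries against 3, in which 0.1 is the smallest p possible. Adjusted for the 32 tests, the smallest p was 0.738, so no share passed, nor could one at this group size. The smallest raw p was reached by Cox4i2 in wild-type clonidine (0.632% against 0.464%), Cox8b in the libraries titled KO-Guanabenz (0.120% against 0.258%) and Atp5g2 in wild-type clonidine (8.96% against 9.69%). Counted without length, Cox4i2 and Cox8b kept a permutation p of 0.1 in these comparisons, and Atp5g2 had 0.2. Cox8b stood at 0.365, 0.372 and 0.498 CPM in KO-Control and 0.17, 0.101 and 0.262 in KO-Guanabenz, a log2 fold change of -1.21 (SE 0.38, edgeR adjusted p = 0.171). Cox6a2 was at -0.61 (0.21, adjusted p = 0.206) in the same edgeR comparison, beside the skeletal muscle markers given above. Cox4i2 stood at 1.91, 1.87 and 1.90 CPM in WT-Control and 2.12, 2.46 and 1.86 in WT-Clonidine, which overlapped; 8 of 10 pericyte and smooth muscle markers were above 0 there. Ndufa4l2 stood at 4.74 to 5.47 CPM in WT-Control, 4.10 to 5.06 in WT-Clonidine and 3.85 to 7.47 in KO-Clonidine, where 1 library, KO-Clonidine 3, was far above the others.

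The other genes of the pathway were grouped by function. In the drug comparisons of both genotypes and in KO against WT under control, no gene of any list passed the edgeR test. The 8 electron carrier genes, which include the cytochrome c gene Cycs, had medians of -0.07 in wild-type clonidine, -0.07 in wild-type guanabenz and -0.10 in knockout guanabenz. The 15 complex I assembly genes had -0.01, -0.08 and -0.11, the 18 of complex IV -0.05, -0.11 and -0.05, and the 5 of complex V -0.12, -0.06 and -0.16. The 4 complex II assembly genes had 0.0044, -0.10 and -0.09, and the 6 of complex III 0.02, -0.04 and -0.04. The 13 genes of the tricarboxylic acid cycle had -0.03, -0.06 and -0.06, and the 13 regulators of mitochondrial biogenesis, such as Nrf1, Gabpa and Ppargc1a, had 0.01, 0.00 and 0.01. The list named for supercomplex formation and respiratory inhibition had -0.25, -0.14 and -0.14. Its 6 tested genes were Higd1a, Higd2a, Cox7a2l, Atpif1, AA467197 and Mcub, and its name does not cover Mcub. Differences between lists were not tested.

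In KO against WT under clonidine 4 genes of these lists were called higher by edgeR, where 1.82% of all genes tested were. Cox7a2l, among them, is also 1 of the 13 subunits called in that comparison. Of 15 complex I assembly genes 1 passed, Ndufaf2, the assembly factor related in sequence to Ndufa12, at 0.34 (SE 0.07, edgeR adjusted p = 0.0217). Of 5 complex V assembly genes 1 passed, Tmem242, at 0.23 (SE 0.05, edgeR adjusted p = 0.0415). Of the 6 tested genes in the list named for supercomplex formation and respiratory inhibition 2 passed. They were Cox7a2l, given above, and Atpif1, which encodes the inhibitor of the synthase, at 0.26 (SE 0.06, edgeR adjusted p = 0.046). None of the 8 carrier, 4 complex II assembly, 6 complex III assembly, 18 complex IV assembly, 13 regulator or 13 tricarboxylic acid cycle genes passed. The single-library limits given for the 13 subunits apply to this comparison as a whole.

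The promoters of the members were searched for motifs of factors known for respiratory genes, in windows of 250 bases before to 50 after the start, on both strands. RefSeq windows (GRCm38.p6) were found for 69 of the 86 members, among them 8 of the 10 that differed across the groups, but not Cox4i1 or Uqcrq. The palindromic NRF1 core was in 7.2% of member genes (5) against 1.1% of all genes in the table, and its first part, GCGCATG, which every core contains, in 18.8% (13) against 4.4%. The YY1 core AAGATGGCG was in 10.1% (7) against 1.6%, the CRE TGACGTCA in 5.8% (4) against 2.0%, and the GABPA and ETS core CCGGAAGT in 7.2% (5) against 4.3%. YY1 cores were in 5 complex I and 2 complex V genes. A match is a description of letters, not a bound site. 4 promoters are shown, 3 with an NRF1 core and that of Uqcr11, a gene that differed across the groups, with a GABPA and ETS core; each is the 120 bases before the start, 5′ to 3′ on the strand of the gene, with the motif in capitals. Atp5k and Atp5g2 encode membrane subunits of the synthase and Ndufa11 a membrane subunit of complex I. They lie at chr5:108434400-108434519, minus strand (Atp5k), chr15:102671048-102671167, minus strand (Atp5g2), chr17:56717642-56717761, plus strand (Ndufa11) and chr10:80406822-80406941, minus strand (Uqcr11).
Atp5k: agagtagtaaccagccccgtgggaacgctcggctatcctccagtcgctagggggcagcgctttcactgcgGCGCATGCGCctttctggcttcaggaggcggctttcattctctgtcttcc
Atp5g2: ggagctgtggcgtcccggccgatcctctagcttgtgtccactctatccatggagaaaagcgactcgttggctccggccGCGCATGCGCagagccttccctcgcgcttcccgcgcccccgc
Ndufa11: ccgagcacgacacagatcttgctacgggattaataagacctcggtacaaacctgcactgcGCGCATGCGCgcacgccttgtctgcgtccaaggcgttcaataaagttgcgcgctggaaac
Uqcr11: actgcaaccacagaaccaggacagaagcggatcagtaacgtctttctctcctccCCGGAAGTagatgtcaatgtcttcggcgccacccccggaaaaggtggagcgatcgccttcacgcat
The core begins 50 bases before the start in Atp5k, 42 in Atp5g2 and 60 in Ndufa11, and 66 in Uqcr11. Of these 4 genes, Atp5k, Atp5g2 and Ndufa11 did not pass the test across the 6 groups, and Uqcr11 did.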

How the data were processed

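Whole tumours of mice, as 18 libraries, were measured by bulk RNA sequencing. The authors deposited estimated counts per gene as whole numbers; per the submitters' processing notes, Trim Galore 0.6.5, kallisto 0.46.0 and GRCm38 were used. kallisto splits reads between near-identical copies by estimate, so Ndufb4 and Ndufb4c are uncertain.

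Of 21015 identifiers 20994 matched a RefSeq gene. Library totals were 54683838 to 491137160, and the depth gap makes counting error smallest in the deepest. edgeR 4.0.16 (R 4.3.3; filterByExpr, TMM, quasi-likelihood, all 18 libraries in 1 model of 6 groups) tested 16125 genes, with Benjamini-Hochberg adjustment over all of them and a threshold of 0.05. DESeq2 1.42.0 and limma-voom (limma 3.58.1) were alternatives, beside other scaling, filters, left-out libraries, a Y-linked term, a replicate block and removal of the trend on transcript length (GENCODE M21). The edgeR fit was run on simulated counts for the wild-type clonidine comparison only, and the other steps were not. The members and lists were chosen with earlier results of these data known. Named in each comparison were the 4 members of smallest p, besides members called and those picked for their role. Single-share tests were exact permutations. Intervals between agonists use the residual degrees of freedom. The symbols Ndufb1 and Ndufb4b were not analysed here.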

Additional observations from a re-analysis of the deposited data

Results flagged for a closer look

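Under clonidine the mean log2 level of the 84 members moved below the control mean in every WT-Clonidine library and above it in every KO-Clonidine library, with group changes of -0.108 and 0.025 and a difference of -0.133. The same pattern held for complex II, with -0.082 in wild type, 0.026 in knockout and a difference of -0.108, and for complex III, with -0.111, 0.043 and -0.154. It did not hold for complexes I, IV and V, with 37, 18 and 17 of the 84 members: their WT-Clonidine libraries were all below the control mean, but their KO-Clonidine libraries fell on both sides of it, at -0.0046 to 0.039 in complex I, -0.035 to 0.064 in complex IV and -0.0096 to 0.066 in complex V. These differences of means were not tested. Among single genes, Ndufs4 (-0.35), Uqcrq (-0.32) and Ndufa1 (-0.26) showed this pattern in every library, and their interaction terms did not pass (edgeR adjusted p = 0.381, 0.381 and 0.429). For the 84 members KO-Clonidine still lay within the range of KO-Control, at 0.040 to 0.067 against -0.0095 to 0.069 relative to the WT-Control mean. In complex II it lay within that range too, at 0.014 to 0.046 against -0.10 to 0.094. In complex III the groups overlapped, at 0.056 to 0.13 against 0.0039 to 0.0996.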

How the results depend on the processing

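Settings other than edgeR with TMM on 18 libraries gave these values. DESeq2 and limma-voom called 6 and 7 members in wild-type clonidine, 7 and 1 in wild-type guanabenz, 14 and 12 in knockout guanabenz, 24 and 22 in KO against WT under clonidine, and 45 and 48 across the 6 groups. The shares of all genes that both methods called are given above with each of these comparisons. Total-count scaling called 2 in knockout guanabenz, against 0.093% of genes, 0 in KO against WT under clonidine, against 1.54%, and 3 across the groups, against 0.49%. Its medians were -0.0538 in wild-type clonidine, -0.0534 for the clonidine difference and 0.0838 for KO against WT under clonidine. Removing the length trend left 0, 2 and 1 calls, and medians of -0.0530 (wild-type clonidine), -0.0542 (clonidine difference), -0.0533 (wild-type guanabenz), -0.0618 (knockout guanabenz) and 0.0844 (KO against WT under clonidine). In KO against WT under clonidine no filter gave 8 calls, against 1.42% of genes, and a stricter filter 5, against 2.52%. The Y-linked term gave 2, leaving out the KO-Guanabenz group 6, and fitting only both groups 0. In knockout guanabenz the stricter filter gave 2, against 0.231% of genes, and fitting only both groups 0, against 0%. Reading KO-Guanabenz as KO-Control gave 0 calls in KO against WT under clonidine and 0 across the groups. Its medians were 0.12 in knockout clonidine, -0.22 for the clonidine difference and -0.0474 in KO against WT under control, where Uqcr11 reversed to -0.00688. Leaving out 1 library at a time gave 0 to 1 calls in wild-type clonidine (1 without WT-Control 2, against 0.339% of genes). In knockout guanabenz it gave 0 to 2, with 2 without WT-Guanabenz 3 or KO-Guanabenz 3, against 0.148% and 0.521%. In KO against WT under clonidine it gave 0 to 17, with 17 without WT-Guanabenz 3, against 3.19%. Across the groups it gave 0 to 17, and the clonidine difference ran from -0.19 to -0.10. Where a cause is not given by the construction of the setting, the cause was not tested.

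Levels without length were 60.9 CPM in complex I, 97.4 in II, 77.5 in III, 112 in IV and 138 in V. By counts the isoform shares were 2.09% for Cox7a1, 3.62% for Ndufa4l2, 31.0% for Atp5g1, 6.10% for Atp5g2 and 62.9% for Atp5g3; leaving out libraries was not run for the permutation tests. Of 1332 alternatives for 45 named gene values, 1107 kept direction and side of the threshold, 201 no longer passed, 23 gained one and 1 reversed. Same-numbered libraries had a median correlation of 0.010 against 0.002 for others, over 0.1 in 10 of 45 pairs against 19 of 90. No pairing by number was seen, but 3 libraries per group cannot exclude one. With the replicate block the calls were 0 in knockout guanabenz, against 0% of genes. They were 10 in KO against WT under clonidine, against 2.07%, and 8 across the groups, against 0.98%.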
